A study of Mus musculus with 26 samples.

Results

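The interstitial matrix and matrix remodelling genes are 31 genes for collagens, matrix glycoproteins and proteoglycans listed as interstitial, and for proteases and protease inhibitors that turn matrix over. Not all lie apart from cells and basement membrane: Col13a1 and Col23a1 are transmembrane collagens, and the product of Prelp anchors basement membrane. The 31 genes were chosen by name among genes of this kind with probe sets of that single gene symbol in the array annotation. In all, 5120 genes had such probe sets. The members were chosen with earlier results of these data known and are not all genes of this kind. A separate list held 9 further tested interstitial matrix genes. The value of a gene was the mean over its probe sets, of which the members had 4 to 41 (median 12). For a gene to be tested, its brightest probe set had to lie above the median of the whole array in 2 or more arrays. This held for 30 of the 31 members, Lum being the exception, and for 4392 genes altogether. All members lie on chromosomes 1, 10, 11 and 12. Matrix genes outside the deposited values were not analysed here.

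Interstitial matrix is built on fibrillar collagens, around which fibronectin, elastic fibre proteins and small leucine-rich proteoglycans assemble. Matrix metalloproteinases and ADAMTS proteases process or degrade it, and tissue inhibitors of metalloproteinases (TIMPs) block these enzymes. Fibroblasts and pericytes are the usual sources of fibrillar collagen, while endothelial cells are known to make fibronectin, fibulin-5, SPARC and TIMPs.

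Expression was measured on Affymetrix microarrays in 26 samples of cells sorted for CD31 and CD146 from female mice carrying 1 of 3 tumours, to ask how interferon gamma (IFNγ) acts on endothelium. MCA313 tumours grew in mice aged 4-6 months whose endothelial cells alone carried the IFNγ receptor, through Pdgfb-Cre (PIG-Pdgfb-Cre-IFNγ-del mice), and these tumours were sampled without induction (3 arrays at 0 h) or once their cells had been made to secrete IFNγ, with 2 arrays taken at 24 h and another 2 at 48 h. J558L tumours, from a plasmacytoma line, grew in Rag-/- mice of the same age, which have the receptor on all cells and no mature T or B cells. Their tumour endothelium gave 2 arrays at 0 h and 3 after 24 h of induced IFNγ-GFP, a fusion protein, and endothelium of their kidneys gave 3 arrays at each time. 16.113 tumours in Rag-/- mice aged 3-4 months were sampled 120 h after T cell transfer, with IFNγ-competent T cells in 3 arrays and IFNγ-deficient T cells in 5. The labels do not say that replicates came from separate animals, so p-values measure the spread between these samples. The number of arrays limits the precision. All values are on the deposited log2 scale.

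Levels are compared only within the MCA313, J558L tumour, J558L kidney and 16.113 arrays, since exact values recur within but hardly between these sets, which points to separate normalization (array medians 5.78 to 5.88, 6.42 to 6.46, 6.33 to 6.40 and 5.62 to 5.79). The endothelial marker Pecam1, which encodes CD31, had group means between 10.86 and 11.92. The 5 measured endothelial markers of 21 listed averaged 9.37 to 10.51 per group, with none past the test in any response. The 7 measured fibroblast markers of 20 averaged 4.73 to 5.25 per group, below every array median, and the defining genes Dpt and Mfap4 had group means of 4.37 to 5.81. The group means were 4.94 to 6.83 for the 5 measured pericyte and smooth muscle markers of 15, 5.39 to 6.25 for 5 leukocyte markers of 15, 6.44 to 7.68 for 6 plasma cell markers of 11, and 7.26 to 8.21 for 4 platelet markers of 8. Of these, 2 plasma cell markers passed the test: Irf4 rose in the 4 tumour responses (2.17 to 3.63) and Sdc1 fell in 16.113 tumours (-0.84). The 6 plasma cell markers together did not follow Irf4. Their median changes were 0.21 and -0.03 in MCA313 tumours at 24 h and 48 h, 0.01 in J558L and 0.11 in 16.113 tumours. In the same order, 4, 3, 3 and 4 of the 6 were higher. Among the MCA313 controls, replicate 3 read highest for Rgs5 (6.89, 8.19 and 9.07 in replicates 1 to 3) and for all 5 fibrillar and beaded collagens, Fn1, Dcn and Timp3. Among the 16.113 arrays the competent replicates had the lowest correlations with each other over the genes tested (0.936 to 0.954). In such bulk samples, fewer cells of a type and less RNA per cell cannot be told apart.

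The response of these genes to IFNγ rested on few members. The protease inhibitor gene Timp3 rose in MCA313 and 16.113 tumours, the elastic fibre gene Fbln5 fell in MCA313 tumours and in kidney, and the protease gene Mmp11 fell in kidney and in 16.113 tumours. Of the 30 members tested, 2 passed at 24 h in MCA313 tumours (6.67%, against 2.8% of all genes tested), 1 higher and 1 lower where 1.32% and 1.48% of all genes were. At 48 h 3 passed (10%, against 3.1%), 1 higher and 2 lower, with 1.43% and 1.66% of all genes. Both time points were compared with the same 3 controls. In J558L tumours 0 members passed (2.12% of all genes did) in limma at an adjusted p of 0.05, although 6 had an unadjusted p under 0.05. Kidney endothelium had 4 members past the test, all lower (13.3%, against 5.92% of all genes and 2.8% of all genes in that direction). In 16.113 tumours 3 passed (10%), 1 higher and 2 lower, next to 9.38% of all genes (2.87% higher and 6.51% lower), so that the share of members there was near the background.

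As a group the 30 members shifted little. Their median log2 change was 0.01 and -0.09 at 24 h and 48 h in MCA313 tumours, -0.01 in J558L tumours, -0.16 in kidney and -0.09 in 16.113 tumours, where the median of all genes tested lay between -0.03 and -0.01. An unadjusted p under 0.05 was found for 6, 6, 6, 8 and 5 members in these responses, which is 20%, 20%, 20%, 26.7% and 16.7% of them, next to 15.3%, 15.2%, 10.9%, 18.5% and 22.4% of all genes. By sign alone, Timp3, Col9a1 and Col23a1 were higher in all 5 responses and Fbln5, Emid1, Timp2, Col1a1, Sparc and Chad lower. Most of these changes did not pass the test, and only Timp3, Fbln5 and Emid1 passed in any response. Col9a1 and Chad lay above the array median in 0 of 26 arrays. The MCA313 responses share controls, and the share of all genes with the same sign throughout was not counted.

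**Figure D1:**
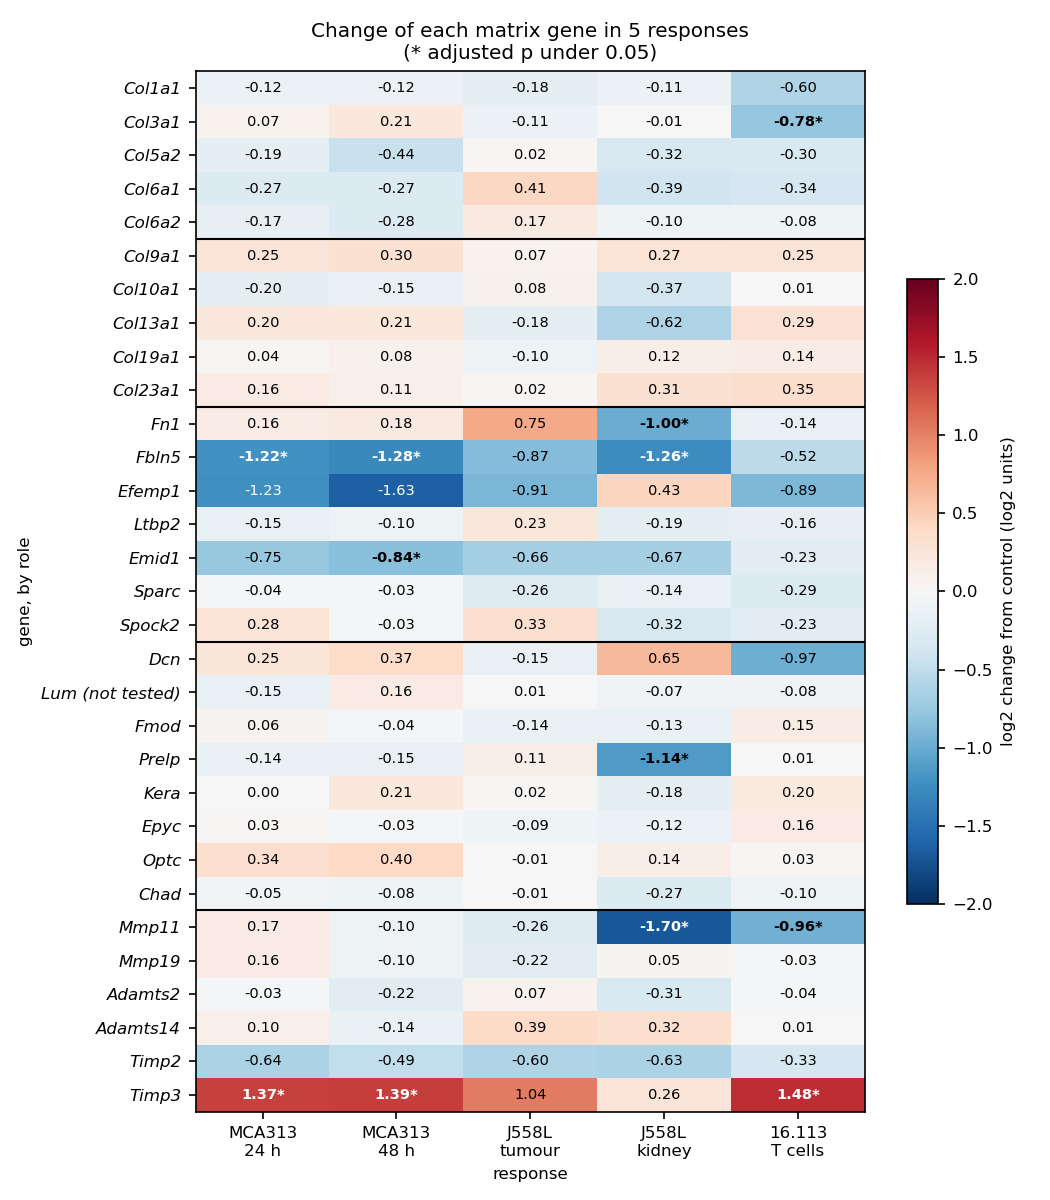
Log2 change from control of each of the 31 genes (rows, grouped by role) in the 5 responses (columns), as colour and number, with an asterisk where the adjusted p was under 0.05. Timp3 is the row with called rises (1.37, 1.39 and 1.48), and the kidney column has 4 called falls, in Fn1, Fbln5, Prelp and Mmp11.

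Of the 12 members with no array above its median, the values lay between 3.04 (Lum) and 6.31 (Adamts14). These were the cartilage collagen genes Col9a1 and Col10a1, Col19a1, the proteoglycan genes Lum, Fmod, Kera, Epyc, Optc and Spock2, the cartilage matrix gene Chad, and the protease genes Mmp19 and Adamts14. The deposited values carry no background estimate, so whether these transcripts were present cannot be read from such values. The 5 members above the median in all 26 arrays were Fn1, Fbln5, Emid1, Sparc and Timp3, and 14 members were above it in some arrays.

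Timp3, which encodes a matrix-bound inhibitor of metalloproteinases and ADAMTS proteases, was the member whose rise recurred. In MCA313 tumours it read 9.12, 10.40 and 10.77 in the 3 controls, 11.56 and 11.38 at 24 h, and 11.62 and 11.35 at 48 h. All 4 induced arrays lay above all controls, and the controls spread more widely than the induced arrays. The change was 1.37 ± 0.28 (SE) at 24 h (2.58-fold, adjusted p = 0.00756 in limma) and 1.39 ± 0.28 at 48 h (2.62-fold, adjusted p = 0.00601), with 10 of its 11 probe sets higher at each time. The 24 h call ended without 24 h replicate 1 (1.27, adjusted p = 0.0674) or 2 (1.46, adjusted p = 0.0878), and the 48 h call without 48 h replicate 1 (1.25, adjusted p = 0.155). Fitted on the MCA313 arrays of each comparison alone, the adjusted p was 0.164 and 0.184.

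In 16.113 tumours Timp3 read 9.71, 9.44, 9.40, 9.58 and 9.37 with deficient T cells and 11.03, 10.82 and 11.09 with competent ones. The groups were more than 1 log2 unit apart and did not overlap. The rise of 1.48 ± 0.22 (2.79-fold, adjusted p = 0.000191) held for all 11 probe sets and passed whichever of the 8 arrays was left out. In J558L tumours the same gene read 10.48 and 10.81 at 0 h and 11.64, 11.72 and 11.70 at 24 h, again without overlap. This difference of 1.04 ± 0.28 missed the threshold (adjusted p = 0.0505), with 11 of 11 probe sets higher. It passed with a stricter filter (adjusted p = 0.0393), with quantile normalization (0.0347), with a trended variance prior (0.0431) and with the J558L tumour arrays alone (0.0122). With the brightest probe set it was 0.40.

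In kidney endothelium Timp3 read 11.74, 11.81 and 11.91 at 0 h and 11.97, 12.02 and 12.27 at 24 h, a difference of 0.26 ± 0.25 (adjusted p = 0.673). The tumour response exceeded the kidney response by 0.78 ± 0.37, which did not pass (adjusted p = 0.603), so a difference between the tissues was not shown. The largest changes of Timp3 were in probe sets of low control level, whose changes also spread the most. At 24 h in MCA313 tumours the 6 probe sets with a control level above 11 differed by 0.52 to 1.22, and the 5 below it by -0.79 to 3.01. The brightest probe set reached 13.96 there, and the highest value in the table was 14.34. In kidney 7 of the 11 probe sets began above 11, with changes of 0.03 to 0.25. The part of the bright probe sets in the size of the changes was not tested. Taken from the brightest probe set, the change was 0.52 and 0.53 in MCA313 tumours at 24 h and 48 h (adjusted p = 0.363 and 0.288) and 0.78 in 16.113 tumours (adjusted p = 0.00869).

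Promoters are shown, from RefSeq's table for GRCm38.p6, for the 5 members with a call that did not hang on any single array (Timp3, Mmp11, Fbln5, Col3a1 and Prelp), so that the sequence upstream can be set beside the response. The table held 30 promoters of 25 of the 31 members. The 250 bases before the transcript start were searched on both strands, and capitals mark matches to the 5 motifs described here. The sequence of Timp3 (chr10:86300162-86300411, plus strand) is

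Timp3: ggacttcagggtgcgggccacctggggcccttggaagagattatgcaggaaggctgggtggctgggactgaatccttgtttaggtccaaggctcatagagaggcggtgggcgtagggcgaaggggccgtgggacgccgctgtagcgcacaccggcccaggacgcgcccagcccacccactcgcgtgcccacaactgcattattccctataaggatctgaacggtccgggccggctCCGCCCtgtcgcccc

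Its capitals are 1 match to the GC box (GGGCGG or its reverse complement), which begins 15 bases before the start. The core of the interferon-stimulated response element, GAAANNGAAA, was matched in 0 of the 30 member promoters and in 2.98% of 32851 promoters of the same length. A GC box was present in 13 of 30 (43.3%, against 32.7%), an AP-1 site TGANTCA in 2 (6.67%, against 6.75%), a TATA box TATAAA in 4 (13.3%, against 12.4%) and CCAAT in 5 (16.7%, against 33.8%). These counts describe letters within 250 bases and say nothing of factors that bind elsewhere.

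Timp2, whose product inhibits metalloproteinases and takes part in activating MMP2, was lower in each response, and no change passed. In MCA313 tumours it read 7.21, 6.71 and 7.02 in controls, 6.49 and 6.20 at 24 h, and 6.35 and 6.64 at 48 h. In J558L tumours it read 6.96 and 6.95, then 6.03, 6.14 and 6.88, and in kidney 8.46, 8.29 and 7.85, then 7.98, 7.29 and 7.44. The groups did not overlap in MCA313 and J558L tumours and did in kidney and in 16.113 tumours. The differences were -0.64 at 24 h and -0.49 at 48 h in MCA313 tumours, -0.60 in J558L tumours (adjusted p = 0.361), -0.63 in kidney (adjusted p = 0.126) and -0.33 in 16.113 tumours. Of its 9 probe sets, the 6 above the mean array median had median changes of -0.87, -0.88, -1.10, -0.90 and -0.48 in these responses, and the 3 below it 0.14, 0.14, 0.14, -0.31 and -0.33. By sign Timp3 was higher and Timp2 lower in all 5 responses.

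Mmp11 encodes stromelysin-3, a secreted metalloproteinase that is activated inside the cell by furin. In kidney endothelium it read 8.57, 8.45 and 8.28 at 0 h and 6.85, 6.30 and 7.04 at 24 h. The lowest control was above the highest treated array by more than 1 log2 unit. The fall of -1.70 ± 0.22 (3.25-fold lower, adjusted p = 2.8e-05) involved 12 of 12 probe sets and passed whichever of the 6 arrays was left out. In 16.113 tumours it read 5.46, 5.96, 5.97, 6.32 and 5.96 with deficient and 5.37, 4.80 and 4.75 with competent T cells. The groups did not overlap, though deficient replicate 1 lay just above competent replicate 1. That fall was -0.96 ± 0.19 (adjusted p = 0.00304, 11 of 12 probe sets lower), and since the competent mean of 4.97 lies below the array medians its size is uncertain. The brightest probe set gave -1.92 in kidney (adjusted p = 0.171) and -2.84 in 16.113 tumours (adjusted p = 0.00722).

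In MCA313 tumours Mmp11 differed by 0.17 and -0.10 and in J558L tumours by -0.26, with group means of 5.64 to 6.17 near or below the array medians. The tumour response minus the kidney response was 1.44 ± 0.33 (adjusted p = 0.0517). This difference passed with the stricter filter, with the J558L arrays alone and without kidney 24 h replicate 3. The promoter of Mmp11 (chr10:75932503-75932752, minus strand, printed 5′ to 3′ on that strand) has 2 GC boxes, in capitals.

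Mmp11: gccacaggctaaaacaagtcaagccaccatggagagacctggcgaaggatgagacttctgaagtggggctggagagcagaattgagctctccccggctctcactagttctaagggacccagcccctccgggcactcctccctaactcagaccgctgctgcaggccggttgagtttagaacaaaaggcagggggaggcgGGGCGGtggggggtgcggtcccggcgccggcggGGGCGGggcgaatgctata

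The other protease genes among the members moved little. Mmp19, a broad-acting metalloproteinase gene, lay between -0.22 and 0.16 in the 5 responses. Adamts2 and Adamts14, which encode procollagen N-propeptidases, lay between -0.31 and 0.07 and between -0.14 and 0.39. None passed the test, and of these Adamts14 in J558L tumours had an unadjusted p under 0.05 (adjusted p = 0.405).

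Fbln5 encodes fibulin-5, which endothelial and smooth muscle cells deposit on elastic fibres and which binds integrins. In MCA313 tumours it read 9.49, 9.05 and 9.39 in controls, 7.80 and 8.39 at 24 h, and 7.42 and 8.64 at 48 h. All induced arrays were below all controls, and the pair at 48 h stood more than 1 log2 unit apart. It fell by 1.22 on the log2 scale at 24 h (SE 0.29, 2.33-fold lower, adjusted p = 0.0199) and by 1.28 at 48 h (SE 0.29, adjusted p = 0.0121), with 12 of 12 probe sets lower at both times. The 24 h call ended without control replicate 1 (-1.13, adjusted p = 0.108) or 3 (-1.18, adjusted p = 0.0516), and without 24 h replicate 1 (-0.92, adjusted p = 0.203) or 2 (-1.52, adjusted p = 0.0792). The 48 h call ended without control replicate 1 (-1.20, adjusted p = 0.069) or 48 h replicate 1 (-0.68, adjusted p = 0.457), with the brightest probe set (adjusted p = 0.0556) and with the MCA313 arrays alone (adjusted p = 0.128).

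In kidney endothelium Fbln5 read 12.05, 11.58 and 11.63 at 0 h and 10.51, 10.20 and 10.76 at 24 h, again with no overlap. The fall of -1.26 ± 0.26 (2.40-fold lower, adjusted p = 0.00304, 12 of 12 probe sets) passed without any 1 of the 6 arrays, but not with the brightest probe set (-1.15, adjusted p = 0.0929). In J558L tumours it read 9.17 and 9.63, then 8.61, 8.46 and 8.51. This difference of -0.87 ± 0.29 had an adjusted p of 0.146 and passed when the J558L tumour arrays were fitted alone (adjusted p = 0.035). In 16.113 tumours the deficient arrays read 9.41, 9.30, 9.66, 9.20 and 9.49 and the competent ones 8.83, 9.35 and 8.49, so that competent replicate 2 lay among the deficient arrays. There the difference was -0.52 ± 0.23 (adjusted p = 0.178) with 12 of 12 probe sets lower. Tumour and kidney responses of J558L differed by 0.39 ± 0.39 (adjusted p = 0.892; 95% interval -0.41 to 1.19). Of the 2 promoters listed for Fbln5, the first (chr12:101819120-101819369, minus strand) has 2 GC boxes and 1 CCAAT box in capitals, and the second has no match to these 5 motifs.

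Fbln5: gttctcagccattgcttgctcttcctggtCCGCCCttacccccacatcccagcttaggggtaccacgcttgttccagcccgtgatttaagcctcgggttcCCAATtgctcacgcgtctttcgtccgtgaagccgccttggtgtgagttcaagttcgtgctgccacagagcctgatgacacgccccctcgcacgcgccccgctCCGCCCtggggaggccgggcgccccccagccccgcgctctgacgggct

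**Figure D2:**
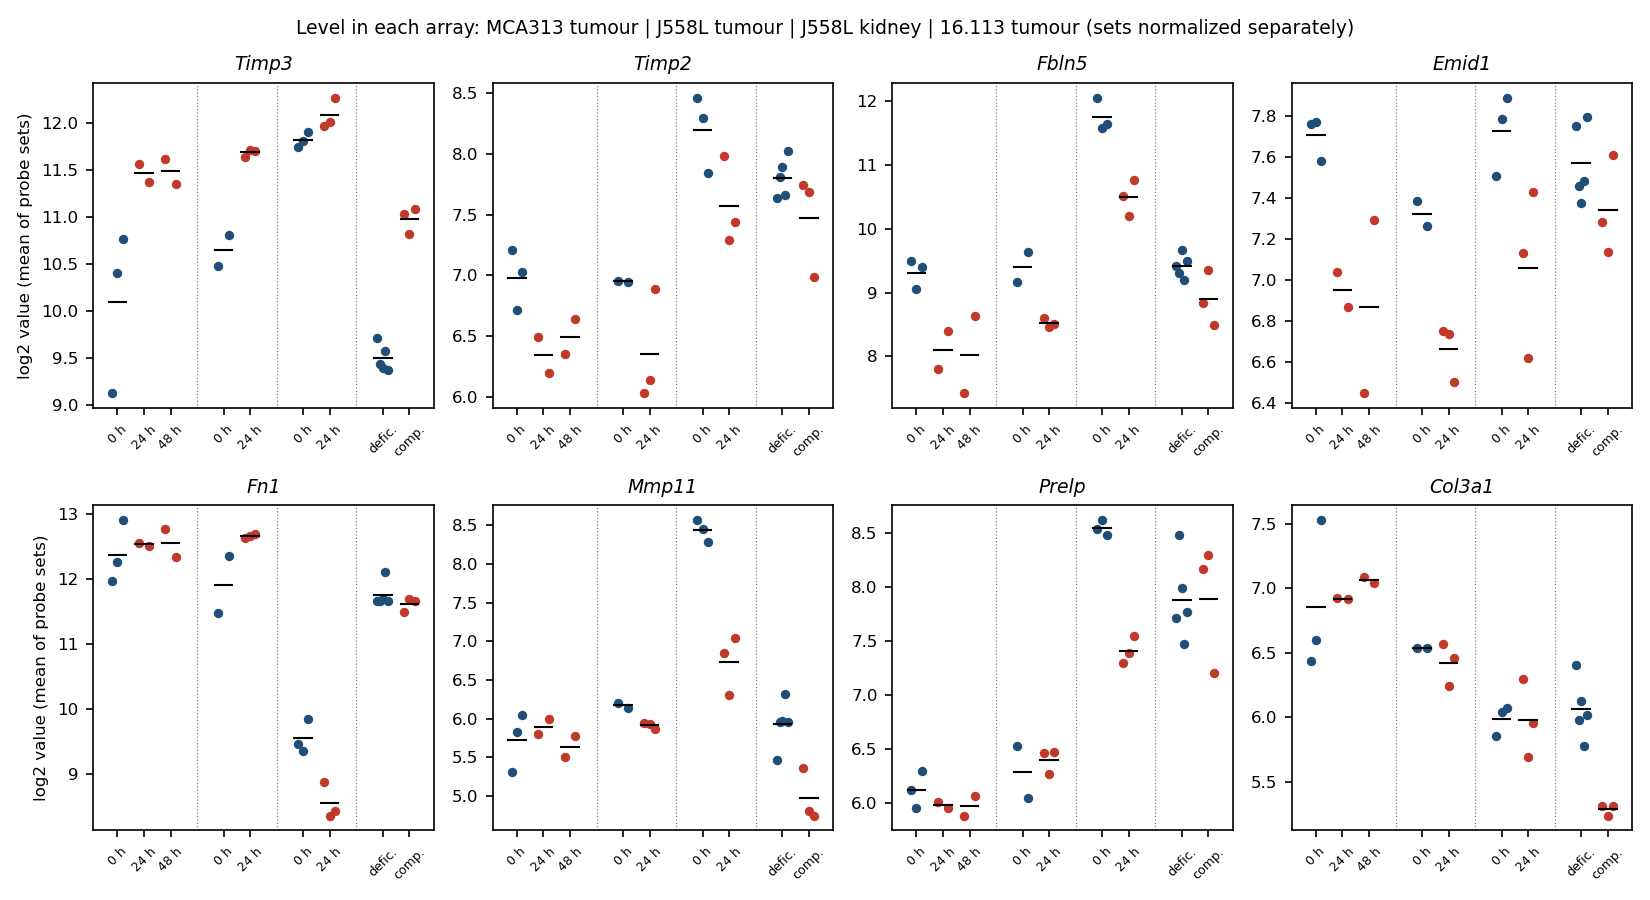
Log2 value (mean of probe sets) in each array, one panel per gene, for the 9 groups in 4 separately normalized sets divided by dotted lines, with controls in blue, IFNγ groups in red and group means as black bars. Timp3 lies higher and Fbln5 lower in the red arrays of MCA313 without overlap, and Fn1 is lower in treated kidney (8.36 to 8.88) than in control kidney (9.35 to 9.85).

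Emid1 encodes an EMI domain matrix protein with a collagen stretch. In MCA313 tumours it read 7.76, 7.78 and 7.58 in controls, 7.04 and 6.87 at 24 h, and 6.45 and 7.29 at 48 h. It fell at 48 h by 0.84 on the log2 scale (SE 0.23, adjusted p = 0.0455), while the difference of -0.75 ± 0.23 at 24 h did not pass (adjusted p = 0.0721). All induced arrays lay below the controls. The 48 h call was close to the threshold: it ended without control replicate 1 (-0.81, adjusted p = 0.152), 2 (-0.80, adjusted p = 0.0962) or 3 (-0.90, adjusted p = 0.0625), and without 48 h replicate 1 (-0.41, adjusted p = 0.684). It also ended with no filter, with quantile normalization, with the trended prior and with the MCA313 arrays alone. In J558L tumours Emid1 read 7.39 and 7.26, then 6.75, 6.74 and 6.50 (-0.66, adjusted p = 0.171), and in kidney 7.51, 7.79 and 7.89, then 7.14, 6.62 and 7.43 (-0.67, adjusted p = 0.0539). Groups did not overlap in either tissue, and in 16.113 tumours they did (-0.23). With the brightest probe set the J558L tumour difference passed (-1.59, adjusted p = 0.0124).

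Efemp1, which encodes fibulin-3, a relative of fibulin-5, varied more between replicates. In MCA313 tumours it read 7.54, 7.10 and 6.54 in controls, 6.26 and 5.40 at 24 h, and 5.66 and 5.20 at 48 h. The differences of -1.23 ± 0.57 and -1.63 ± 0.57 did not pass (adjusted p = 0.308 and 0.135), with 12 of 12 probe sets lower at both times. In J558L tumours it differed by -0.91, in 16.113 tumours by -0.89 and in kidney by 0.43, none past the test. In kidney its 24 h replicates read 8.52, 8.73 and 6.50, with replicate 3 far below the others and below the 3 controls (7.69, 7.62 and 7.14). Fitted on the J558L tumour arrays alone, its difference there passed.

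Fn1 encodes fibronectin, the glycoprotein on which other matrix fibres assemble. In kidney endothelium it read 9.46, 9.35 and 9.85 at 0 h and 8.88, 8.36 and 8.43 at 24 h. It fell by 1.00 on the log2 scale (SE 0.23, 2.0-fold lower, adjusted p = 0.00689), with 40 of 41 probe sets lower and no overlap. The call ended without kidney 0 h replicate 3 (-0.85, adjusted p = 0.053). In J558L tumours it read 11.48 and 12.35 at 0 h and 12.63, 12.66 and 12.70 at 24 h. The treated tumour arrays agreed within 0.1 while the controls stood almost 1 log2 unit apart, and the difference of 0.75 ± 0.25 did not pass (adjusted p = 0.153), although 41 of 41 probe sets were higher. It passed without tumour control replicate 2 (1.19, adjusted p = 0.0457).

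The J558L tumour response of Fn1 exceeded the kidney response by 1.75 ± 0.34 (adjusted p = 0.0285; 95% interval 1.05 to 2.45), in 41 of 41 probe sets. Fn1 was the 1 member of 30 that passed this test (3.33%, against 0.342% of all genes and 0.25% in that direction). The call ended without tumour control replicate 1 (1.31, adjusted p = 0.277), tumour 24 h replicate 2 (1.75, adjusted p = 0.0617) or 3 (1.73, adjusted p = 0.0756), kidney control replicate 3 (1.60, adjusted p = 0.0716), or kidney 24 h replicate 2 (1.65, adjusted p = 0.0537) or 3 (1.69, adjusted p = 0.0517). With the brightest probe set it was 1.16 (adjusted p = 0.143). For the same difference the 5 pericyte and smooth muscle markers had a median of 1.14, with 4 of 5 positive and none past the test, and their part in the Fn1 difference was not tested. In MCA313 tumours Fn1 differed by 0.16 and 0.18 and in 16.113 tumours by -0.14, none past the test.

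Of the remaining glycoprotein genes, Sparc, whose product binds collagen during secretion, differed by -0.29 ± 0.11 in 16.113 tumours (adjusted p = 0.106, 11 of 11 probe sets lower) and by -0.26 ± 0.14 in J558L tumours. Its replicates were close, with controls of MCA313 at 11.23, 11.20 and 11.19. Ltbp2, a microfibril-associated gene, lay between -0.19 and 0.23 and Spock2, a testican gene, between -0.32 and 0.33, with none past the test.

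The 5 fibrillar and beaded collagen genes gave 1 call. Col3a1, for the collagen III of distensible tissue, read 6.40, 5.98, 6.13, 5.78 and 6.01 in 16.113 tumours with deficient T cells and 5.31, 5.24 and 5.31 with competent ones. The groups did not overlap, and the competent arrays agreed within 0.1. It fell by 0.78 on the log2 scale (SE 0.19, 1.71-fold lower, adjusted p = 0.00975) and passed without any 1 of the 8 arrays, but only 17 of its 23 probe sets were lower and the brightest one gave -0.07 (adjusted p = 0.919). The competent level lies below the array medians, so the size is uncertain.

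Col1a1, for the main chain of collagen I, read 7.28, 6.42, 6.63, 6.24 and 6.13 with deficient and 5.95, 6.05 and 5.82 with competent T cells, a difference of -0.60 ± 0.29 that did not pass (adjusted p = 0.235). In MCA313 controls it read 6.77, 7.18 and 8.52 and Col3a1 6.44, 6.60 and 7.53, with replicate 3 the highest in both, as for Rgs5. The induced MCA313 arrays lay within that range, at 7.11 to 7.63 for Col1a1 and 6.92 to 7.09 for Col3a1. Col5a2, which regulates fibril diameter, differed by -0.44 ± 0.21 at 48 h (adjusted p = 0.319). Its brightest probe set gave 0.53. Col6a1 and Col6a2, for beaded collagen VI, differed by -0.39 to 0.41 and -0.28 to 0.17 over the responses. Fibroblast markers in 16.113 tumours averaged 4.73 (4.61 to 4.97) with deficient and 4.78 (4.55 to 4.99) with competent T cells, below every array median. Of the 5 tested 4 were higher and none passed, with changes of only -0.135 to 0.168. Dcn, a usual product of fibroblasts given below, had group means of 10.01 and 9.04 there. Its difference of -0.97 ± 0.52 did not pass either (adjusted p = 0.272 in limma). The part of fibroblasts in the collagen values was not tested. The 5 leukocyte markers averaged 6.03 and 6.22. The promoter of Col3a1 (chr1:45311288-45311537, plus strand) has 1 TATA box, in capitals, 112 to 117 bases before the start.

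Col3a1: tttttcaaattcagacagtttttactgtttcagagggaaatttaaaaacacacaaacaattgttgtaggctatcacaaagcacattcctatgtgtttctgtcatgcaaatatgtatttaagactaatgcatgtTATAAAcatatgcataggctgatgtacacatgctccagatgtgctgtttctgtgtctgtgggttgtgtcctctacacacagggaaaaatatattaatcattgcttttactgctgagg

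The other collagen genes among the members had no call. Col13a1, a transmembrane collagen found at cell adhesions, read 6.87, 6.80 and 7.39 in control kidney and 6.28, 6.33 and 6.60 at 24 h. The groups did not overlap, and the difference of -0.62 ± 0.19 just missed the threshold (adjusted p = 0.0515, 23 of 28 probe sets lower), passing with the stricter filter (adjusted p = 0.0406). In the other responses it lay between -0.18 and 0.29. Col23a1, another transmembrane collagen, was at 0.02 to 0.35, and Col9a1 at 0.07 to 0.30 from levels below the array medians. Col10a1, the collagen of hypertrophic cartilage, lay at -0.37 to 0.08 and Col19a1 at -0.10 to 0.14.

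The 8 leucine-rich repeat genes lie in part side by side: Dcn, Lum, Kera and Epyc on chromosome 10, and Optc, Prelp and Fmod on chromosome 1. Prelp, whose product anchors basement membrane to connective tissue collagen, read 8.54, 8.62 and 8.48 in control kidney and 7.30, 7.39 and 7.54 at 24 h. Replicates agreed within 0.3 in both groups, and the groups were about 1 log2 unit apart. The fall of -1.14 ± 0.23 (2.20-fold lower, adjusted p = 0.00331, 6 of 6 probe sets) passed without any 1 of the 6 arrays, and the brightest probe set gave -1.75 (adjusted p = 0.0047). Its neighbours Optc and Fmod differed by 0.14 and -0.13 there as means over their probe sets. For Fmod that mean hid a split. The 1 probe set above the mean array median differed by -0.998, and the 7 below it had a median change of 0.09. With the brightest probe set Fmod passed the test in kidney, so whether the fall stopped at Prelp depends on the summary used.

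In J558L tumours Prelp read 6.53 and 6.04, then 6.46, 6.27 and 6.47, and the tumour and kidney responses differed by 1.25 ± 0.35 (adjusted p = 0.177). Prelp passed the test of that difference when the J558L arrays were fitted alone. In 16.113 tumours it read 7.71, 8.48, 7.99, 7.47 and 7.77 with deficient and 8.17, 8.30 and 7.21 with competent T cells, a difference of 0.01. Competent replicate 3 was the lowest of those arrays. The promoter of Prelp in the table (chr1:133921402-133921651, minus strand) has 1 CCAAT box, in capitals, 15 bases before the start.

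Prelp: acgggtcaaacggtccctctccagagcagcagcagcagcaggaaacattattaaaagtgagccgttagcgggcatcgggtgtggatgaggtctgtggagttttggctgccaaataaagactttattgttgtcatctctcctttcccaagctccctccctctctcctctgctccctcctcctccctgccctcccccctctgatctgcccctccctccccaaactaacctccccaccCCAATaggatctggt

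Dcn encodes decorin, which binds collagen fibrils and TGF-beta and is a usual product of fibroblasts. In 16.113 tumours it read 9.67, 9.87, 9.82, 10.27 and 10.42 with deficient and 9.21, 10.09 and 7.82 with competent T cells. Competent replicate 3 was the lowest and replicate 2 lay among the deficient arrays, and the difference of -0.97 ± 0.52 did not pass (adjusted p = 0.272). In MCA313 controls it read 5.60, 5.48 and 7.22, with replicate 3 again the highest. In kidney it read 7.02, 6.89 and 5.23, then 7.89, 7.20 and 6.00, a difference of 0.65 ± 0.58 with 10 of 10 probe sets higher. Lum, Kera and Epyc had values of 3.04 to 4.59, below every array median, Optc 4.66 to 5.58 and Fmod 4.63 to 5.79. At 24 h and 48 h in MCA313 tumours Optc differed by 0.34 and 0.40 (adjusted p = 0.286 and 0.19). Chad had values of 4.04 to 6.02.

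In kidney the 4 falls stood beside pericyte markers that were lower by sign. The 5 measured markers of pericytes and smooth muscle averaged 6.83 (6.70 to 7.02) at 0 h and 6.34 (6.22 to 6.53) at 24 h, with 5 of 5 lower, a median change of -0.61 and none past the test. Rgs5 differed by -0.61 ± 0.41, Des by -0.86 ± 0.33 and Higd1b by -0.85 ± 0.35. The fall was not uniform, since the smallest of the 5 changes was -0.05. The endothelial markers averaged 10.51 and 10.40. The part of pericyte markers in the falls of Fn1, Fbln5, Prelp and Mmp11 was not tested. No level of kidney epithelium or podocyte markers is given here, and the part of such cells was not tested either. In MCA313 tumours, where Fbln5 also fell, the pericyte markers averaged 6.04 (5.34 to 6.62) in controls and 6.20 (6.16 to 6.24) at 24 h, and 5.72 (5.67 to 5.77) at 48 h, both within the wide range of the controls. Their part there was not tested.

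Between 24 h and 48 h in MCA313 tumours 0 of the 30 members passed (0.0228% of all genes did), and 0 had an unadjusted p under 0.05 in limma. The differences lay between -0.40 (Efemp1) and 0.21. Timp3 stood at 0.02 ± 0.30 and Fbln5 at -0.07 ± 0.31, with 95% intervals of -0.61 to 0.65 and -0.72 to 0.59. The 24 h responses of MCA313 and J558L tumours also differed in 0 of 30 members (0.0228% of all genes), with 0 at an unadjusted p under 0.05 in limma. That difference was 0.33 ± 0.39 for Timp3 (95% interval -0.49 to 1.14), -0.35 ± 0.41 for Fbln5 (-1.19 to 0.50) and -0.68 ± 0.33 for Col6a1 (-1.37 to 0.00).

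Genes that modify collagen or act on matrix through other routes were read from 4 lists. Of 28 genes for collagen modification and crosslinking, 5 were tested, and Colgalt2, which adds galactose to the hydroxylysine of collagen and is annotated on the array as Glt25d2, fell in all 5 responses. In MCA313 tumours it read 7.88, 7.74 and 7.54 in controls, 6.09 and 6.95 at 24 h, and 6.59 and 6.21 at 48 h. In kidney it read 8.13, 8.18 and 8.88, then 6.92, 7.13 and 7.16, and in J558L tumours 6.59 and 7.18, then 5.90, 5.52 and 5.83. No response showed overlap between its groups, 16.113 tumours included (6.10 to 6.41 against 5.22 to 5.89). The changes were -1.20 ± 0.26 and -1.32 ± 0.26 in MCA313 tumours (adjusted p = 0.0109 and 0.00527), -1.13 ± 0.26 in J558L tumours (adjusted p = 0.0186), -1.33 ± 0.23 in kidney (adjusted p = 0.000684) and -0.77 ± 0.20 in 16.113 tumours (adjusted p = 0.019).

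The kidney call of Colgalt2 passed without any 1 of the 6 arrays. The MCA313 call at 24 h ended without control replicate 1 (-1.12, adjusted p = 0.069) or 24 h replicate 1 (-0.77, adjusted p = 0.196) and with the MCA313 arrays alone (adjusted p = 0.0672), and that at 48 h without 48 h replicate 2 (-1.13, adjusted p = 0.062). The J558L tumour call ended without control replicate 1 (-1.43, adjusted p = 0.0606) or 2 (-0.83, adjusted p = 0.342), or 24 h replicate 2 (-1.01, adjusted p = 0.0889) or 3 (-1.17, adjusted p = 0.0531). The 16.113 call ended without competent replicate 1 (-0.70, adjusted p = 0.0553) or 3 (-0.64, adjusted p = 0.122). With the brightest probe set the calls in MCA313 tumours, J558L tumours and kidney ended, at -1.02, -1.22, -1.84 and -1.44.

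In 16.113 tumours, where 6.51% of all genes tested fell, 3 of the 5 tested genes of that list fell. Besides Colgalt2 these were P3h4 (annotated Leprel4), which belongs to a complex that hydroxylates collagen lysines, and P4hb, the beta subunit of prolyl 4-hydroxylase and a protein disulfide isomerase. P3h4 read 7.71, 7.67, 8.03, 7.84 and 8.22 with deficient and 7.13, 7.09 and 5.25 with competent T cells. Competent replicate 3 stood far below the others, and the fall of -1.41 ± 0.28 (adjusted p = 0.00292) was -0.79 without it (adjusted p = 0.0131). P4hb read 9.89 to 10.25 with deficient and 9.58, 9.69 and 9.21 with competent T cells, a fall of -0.59 ± 0.12 (adjusted p = 0.00328). Fitted on the 16.113 arrays alone, both had an adjusted p of 0.0737. P3h4 was also lower without overlap in the other responses, though it did not pass there. In MCA313 tumours it read 8.61, 8.40 and 8.76 in controls, 7.76 and 8.05 at 24 h, and 7.76 and 7.87 at 48 h. In J558L tumours it read 8.84 and 8.81, then 8.11, 8.25 and 8.34. In kidney the lowest control (7.814) lay just above the highest 24 h array (7.807).

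**Figure D3:**
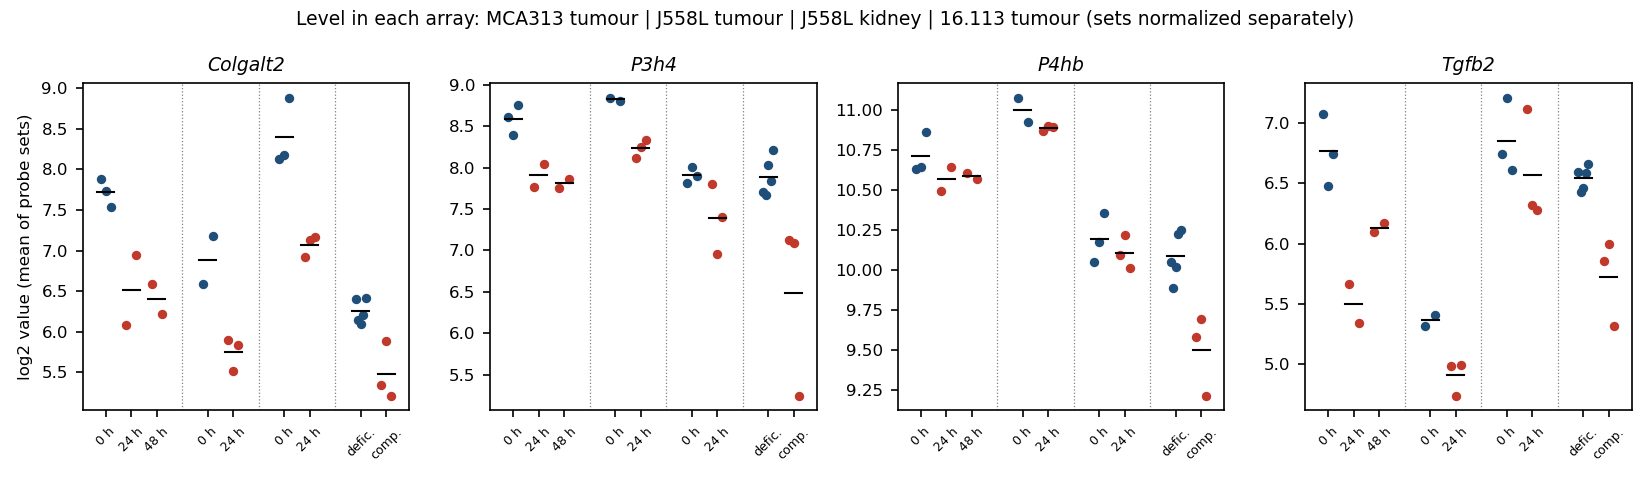
Log2 value (mean of probe sets) in each array for Colgalt2, P3h4, P4hb and Tgfb2, with controls in blue, IFNγ groups in red, group means as black bars and dotted lines between separately normalized sets. Colgalt2 is lower in the red arrays of each of the 4 sets without overlap, and 1 competent 16.113 array of P3h4 stands at 5.25.

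Of 32 genes of the TGF-beta pathway, whose ligands induce matrix genes, 6 were tested. Tgfb2, which encodes a TGF-beta ligand, read 7.08, 6.48 and 6.74 in MCA313 controls, 5.66 and 5.34 at 24 h, and 6.10 and 6.17 at 48 h. It fell at 24 h by 1.26 on the log2 scale (SE 0.24, adjusted p = 0.00427), and at 48 h stood at -0.63 ± 0.24 (adjusted p = 0.17). The 24 h call ended without 24 h replicate 2 (-1.10, adjusted p = 0.138) and with the brightest probe set (-0.92, adjusted p = 0.139). In 16.113 tumours Tgfb2 read 6.43 to 6.66 with deficient and 5.86, 5.99 and 5.32 with competent T cells, a fall of -0.82 ± 0.19 (adjusted p = 0.00709). Without competent replicate 3 this was -0.62 (adjusted p = 0.0788), and with the brightest probe set -0.39 (adjusted p = 0.327).

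Tgfb3, another ligand gene of that pathway, read 7.49, 7.55 and 7.62 in control kidney and 6.47, 6.21 and 6.01 at 24 h. It fell by 1.32 on the log2 scale (SE 0.37, adjusted p = 0.0326). That call ended without any 1 of the 3 controls (adjusted p = 0.0656, 0.079 and 0.0973) or without 24 h replicate 2 or 3 (adjusted p = 0.0959 and 0.113). In J558L tumours Tgfb3 stood at 0.59 ± 0.41, and the responses of tumour and kidney differed by 1.91 ± 0.55 (adjusted p = 0.195). No gene of this list passed at 48 h in MCA313 tumours or in J558L tumours.

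Of 21 integrin genes, the receptors for these matrix proteins, 7 were tested and none passed in any response. The largest by response were 0.31 for Itgb8 and -0.43 for Itgb4 in MCA313 tumours at 24 h and 48 h, -0.52 ± 0.22 for Itgb4 in J558L tumours, -0.68 ± 0.22 for Itgb3 in kidney (adjusted p = 0.0748) and -0.48 ± 0.16 for Itga2b in 16.113 tumours (adjusted p = 0.0588). Of 42 further interstitial matrix genes 9 were tested and none passed. The largest differences in kidney were Ecm2 (-0.76 ± 0.37) and Ogn (-0.56 ± 0.21), and in 16.113 tumours Ecm2 (-0.87 ± 0.34, adjusted p = 0.11) and Smoc1 (-0.58 ± 0.24).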

How the data were processed

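The values used are the deposited log2 values per probe set, made by the authors with Affymetrix Expression Console and limma, per the submitters' processing notes; the normalization and the genome build are not given in the sources used here. Cells were labelled with a pico-input whole-transcript kit, per the labels' protocols. The table held 65535 probe sets in order of identifier and ends there, so genes outside it were not analysed here. Exact values recurred between arrays of a set (at least 5.40% of values) and almost never between sets (at most 0.00458%), so levels are not compared between sets.

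Probe sets with 1 gene symbol (53857) were averaged per gene. A model with 9 group means over 26 arrays was fitted in limma 3.58.1 (R 4.3.3), with moderated two-sided tests and Benjamini-Hochberg adjustment over 4392 genes, threshold 0.05. The fit was tested on simulated data. One variance per gene was estimated over all arrays, since 3 groups hold 2 arrays each. The filter on low values was the array's 50th percentile, to be passed by the brightest probe set in 2 or more arrays. Members, lists and comparisons were chosen with earlier results of these data known. Values in every array are given for members past a test or with large changes in their role group, and for pathway genes past the test. Alternatives were the brightest probe set, no filter, the 75th percentile, quantile normalization, a trended robust variance prior, a replicate block (statmod 1.5.0), the arrays compared alone, and leaving out each array. The alternatives were extended to pathway genes after seeing the data. Promoters are RefSeq's (GRCm38.p6), and 1 further motif is not reported here.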

Additional observations from a re-analysis of the deposited data

Results flagged for a closer look

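In the group of 5 arrays of 16.113 tumours with deficient T cells, 3 of 31 member genes had a sample far from the other 4. Fn1 read 12.11 in replicate 4, above the others, Lum read 4.40 in replicate 1, above the others, and Epyc read 3.55 in replicate 1, below the others. Chance flags about 1 in 20 groups, and the Lum and Epyc values lie below the array medians. The response of Fn1 to 24 h of IFNγ-GFP differed between J558L tumour and kidney endothelium by 1.75 on the log2 scale in the test of that difference.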

How the results depend on the processing

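The number of members past the test kept within 1.5 times its value for kidney (3 to 6) and 16.113 tumours (2 to 3), and stayed 0 for 48 h against 24 h and for MCA313 against J558L, in every setting run. The kidney members themselves changed. With the brightest probe set they were Fn1, Fmod and Prelp, without Fbln5 and Mmp11, and the stricter filter added Col13a1 and Emid1. At 24 h in MCA313 tumours (2 members) the number was 1 with the brightest probe set and 1 with the compared arrays alone, and at 48 h (3 members) 1 and 0. In J558L tumours (0 members) it was 1 with the brightest probe set, the stricter filter, quantile normalization or the trended prior, and 4 with the compared arrays alone. For tumour minus kidney (1 member) it was 0, 2 and 3 with the brightest probe set, the stricter filter and the compared arrays alone. Leaving out 1 array gave 0 to 2 members at 24 h and 0 to 3 at 48 h in MCA313 tumours, 0 to 1 in J558L tumours, 3 to 5 in kidney, 3 in 16.113, and 0 to 1 for tumour minus kidney; the count was 0 without either 24 h array, without 48 h replicate 1 and, for tumour minus kidney, without tumour control replicate 1, kidney control replicate 3, tumour 24 h replicate 2 or 3, or kidney 24 h replicate 2, and it was 3 in kidney without kidney control replicate 3. With the brightest probe set, 3 changes turned sign, none past the test: Col5a2 at 48 h (0.53) and, for tumour minus kidney, Col6a1 (-0.02) and Spock2 (-0.068). The cause was not tested. Over all genes, the brightest probe set gave 30, 60, 24 and 139 calls for MCA313 at 24 h and 48 h, J558L tumour and kidney, against 123, 136, 93 and 260. It gave 1 for tumour minus kidney, against 15. The compared arrays alone gave 63, 42, 173, 163 and 145 calls for MCA313 at 24 h and 48 h, J558L tumour, kidney and 16.113 (412 with all arrays). Leaving out 1 array gave 14 to 122, 14 to 143, 9 to 51, 163 to 230 and 222 to 565 in these 5, and 4 to 17 for tumour minus kidney. Same-numbered replicates correlated by -0.092 to 0.096 in their deviations from the group means. With groups this small, that cannot tell whether the numbers pair samples. The replicate block left 2, 3, 0, 4 and 3 members past the test in the 5 responses, changing no call of a member. Signal over background limits the 12 genes that lay below the median of the same array in all 26 arrays.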
